A study of Mus musculus and Homo sapiens with 20 samples.

Results

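The genes described here are 9 members of glycolysis and gluconeogenesis: Pfkp, Pfkl, Ldha, Hk2, Pklr, Pfkfb3, Pcx, Pck1 and Fbp1. Open chromatin around them was measured by ATAC-seq, in which a transposase inserts adapters into accessible DNA, so that sequenced tags pile up at open sites. A region was counted as a member region where, among protein-coding genes, the body of a member lay closest and no farther than 50 kb away. Of 642948 regions listed in any of 12 mouse hepatocyte libraries, 543 were nearest a member. Of 101575 regions with a peak in all 12 libraries, 106 were nearest a member, and these 106 carry every fold change below. The other member regions lacked a peak in at least 1 library and were not tested. One of the 106 was equally near Lrfn4 and Pcx and is counted under Pcx.

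The hepatocytes carried a floxed Ahr gene in all groups, and all 12 libraries bore the label 4 weeks. Ahr encodes a ligand-activated transcription factor. There were 3 libraries in each of 4 groups: B2_minus with Ad_Cre, control with Ad_Cre, B2_minus with Ad_Cont and control with Ad_Cont. B2_minus stands for vitamin B2 (riboflavin) deficiency in the labels. Ad_Cre stands for the arm that received Cre, the recombinase that removes DNA between loxP sites, and Ad_Cont for its control arm. The word diet is used below only as a short name for the label B2_minus or control. The labels give neither the floxed part of Ahr, the strain nor the age, and do not tie the replicates to cultures or animals. The p-values therefore reflect the scatter among these libraries, and that scatter may be technical. The series also holds 8 libraries of a human cell line, not used here.

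Glycolysis breaks glucose down to pyruvate, which lactate dehydrogenase can turn into lactate. Gluconeogenesis runs the other way in the liver during fasting and bypasses the irreversible glycolytic steps with enzymes of its own. The liver therefore holds both sets of enzymes and is known for switching between them by hormones, metabolites and transcription.

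Listed peaks numbered 200698 to 281141 per library, with lowest listed tag counts of 6 to 8, so a weaker site is missing from a list instead of being listed at 0. Sequencing depth is unknown. All 10 hepatocyte marker genes had a region with a peak in all 12 libraries. Of 8 Kupffer cell markers, 5 had no such region (Clec4f, Adgre1, Vsig4, Cd5l and Timd4), while all 7 stellate, all 7 endothelial and all 5 cholangiocyte markers had at least 1. Summed scaled tags over the 32 stellate marker regions were 773 to 856 in B2_minus libraries with Ad_Cre, against 915 to 978 in control libraries with Ad_Cre. With Ad_Cont the stellate sum was 798 to 818 in B2_minus libraries and 858 to 965 in control libraries. The cholangiocyte sum was 830 to 858 in B2_minus against 889 to 964 in control libraries with Ad_Cre, and 839 to 898 in B2_minus against 910 to 951 in control libraries with Ad_Cont. The hepatocyte sum over 107 regions was 2940 to 3030 in B2_minus and 2723 to 2839 in control libraries with Ad_Cre, and 2901 to 3010 in B2_minus and 2850 to 2906 in control libraries with Ad_Cont. Endothelial marker sums over 49 regions were 1278 to 1297 in B2_minus and 1212 to 1273 in control libraries with Ad_Cre, and 1260 to 1297 in B2_minus and 1204 to 1271 in control libraries with Ad_Cont. The 9 Kupffer regions summed to 169 to 199 in B2_minus and 194 to 213 in control libraries with Ad_Cre, and 178 to 187 in B2_minus and 172 to 196 in control libraries with Ad_Cont. The part of these marker differences in the values below was not tested, and in bulk libraries fewer cells of a type and less open chromatin per cell cannot be told apart. The 9 regions nearest Ahr gave no call between Ad_Cre and Ad_Cont in either diet (edgeR adjusted p at least 0.222), and without the floxed part named they do not check the recombination.

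Each member had open chromatin at its promoter. Among the 106 regions, 12 overlapped a promoter window, which runs from 250 bases before to 50 after a transcription start (RefSeq, GRCm38.p6, the assembly of mm10). All 9 genes matched in that table, with 13 promoters in all. The upstream Pklr promoter was the only window of the 13 without a region in all 12 libraries. Scaled tags, meaning the highest peak count in a region divided by the library's relative size, averaged from 12.8 at the second Pcx promoter to 108 at the first Pcx promoter over the 12 libraries. The median over the 12 promoter regions was 64.5, against 22.9 over the 94 member regions elsewhere.

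Printed here are 5 promoters, chosen because they cover the range of motif content and include the genes whose flanking regions are described next. Capitals mark GCGTG, the core that AhR and its partner bind, ACGTG, the core of the hypoxia response element, and CACGTG, an E box, each searched on both strands. Every CACGTG also holds ACGTG on both strands and is counted under both motifs.
Pfkp promoter, chr13:6648722-6649021, minus strand: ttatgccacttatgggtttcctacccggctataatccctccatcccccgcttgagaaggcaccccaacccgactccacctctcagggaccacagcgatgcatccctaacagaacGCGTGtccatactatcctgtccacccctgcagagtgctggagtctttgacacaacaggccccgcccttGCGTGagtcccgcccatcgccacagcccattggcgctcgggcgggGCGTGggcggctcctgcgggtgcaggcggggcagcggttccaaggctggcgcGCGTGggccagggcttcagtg
Ldha first promoter, chr7:46845554-46845853, plus strand: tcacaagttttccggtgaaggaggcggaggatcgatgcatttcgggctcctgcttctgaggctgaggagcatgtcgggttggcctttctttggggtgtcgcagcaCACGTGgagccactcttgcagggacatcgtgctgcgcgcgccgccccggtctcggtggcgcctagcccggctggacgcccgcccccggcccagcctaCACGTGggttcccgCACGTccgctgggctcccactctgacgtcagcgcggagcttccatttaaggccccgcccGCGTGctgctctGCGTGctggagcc
Hk2 promoter, chr6:82774405-82774704, minus strand: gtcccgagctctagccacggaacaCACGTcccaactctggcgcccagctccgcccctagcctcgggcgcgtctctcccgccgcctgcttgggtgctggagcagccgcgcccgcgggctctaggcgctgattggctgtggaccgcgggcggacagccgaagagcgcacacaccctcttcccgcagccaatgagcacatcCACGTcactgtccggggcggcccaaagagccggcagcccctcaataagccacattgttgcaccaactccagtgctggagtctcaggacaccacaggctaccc
Pklr downstream promoter, chr3:89136373-89136672, plus strand: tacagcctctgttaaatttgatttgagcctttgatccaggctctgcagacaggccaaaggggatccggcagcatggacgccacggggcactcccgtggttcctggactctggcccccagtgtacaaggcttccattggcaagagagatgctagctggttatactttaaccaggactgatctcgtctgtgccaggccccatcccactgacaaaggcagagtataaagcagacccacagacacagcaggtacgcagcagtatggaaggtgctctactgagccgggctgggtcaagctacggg
Pck1 promoter, chr2:173152823-173153122, plus strand: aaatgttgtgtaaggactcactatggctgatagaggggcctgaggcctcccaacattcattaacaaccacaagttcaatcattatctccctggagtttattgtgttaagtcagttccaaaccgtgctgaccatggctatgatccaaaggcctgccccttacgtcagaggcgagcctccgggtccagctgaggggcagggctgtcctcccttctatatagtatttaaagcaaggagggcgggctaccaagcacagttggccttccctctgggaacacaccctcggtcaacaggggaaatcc

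The Pfkp window held 4 matches to GCGTG and none to the other motifs. The first Ldha window held 2 matches to GCGTG and 5 to ACGTG, which count each of its 2 E boxes on both strands. Hk2 held 2 matches to ACGTG, and the printed Pklr and Pck1 windows held no match to any of the 3 motifs. Over the 13 member promoters, 5 held GCGTG (38.5%), 5 held ACGTG and 3 held CACGTG (23.1%). Of 32851 promoters of the same length in the table, 32.4% held GCGTG, 19.6% held ACGTG and 7.15% held CACGTG. These are letter matches in a window, not measured binding sites.

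The members were chosen by the scaled tags of B2_minus and control libraries, which had already been compared near these genes, so the values of that comparison are given as a description and without p-values. A region is called where the edgeR adjusted p over all 101575 regions was under 0.05. With Ad_Cre, 2 of 106 member regions were called, both higher in B2_minus, where 1.13% of all regions were called (0.354% higher, 0.774% lower). With Ad_Cont, 4 of 106 were called, 3 higher and 1 lower, where 1.04% of all regions were called (0.423% higher, 0.618% lower). With both Ad arms averaged, 10 of 106 were called, 9 higher and 1 lower, where 5.78% of all regions were called (2.45% higher, 3.33% lower). The 10 lay near Pfkp, Ldha, Hk2, Pcx and Pfkfb3. No region near Pfkl, Pklr, Pck1 or Fbp1 was called in any of these comparisons. The median log2 fold change of the 106 was 0.04 with Ad_Cre and 0.04 with Ad_Cont, against 0.00 and 0.01 over all regions. The calls rest on a fit in which the variance may fall below Poisson. With DESeq2, 0, 0 and 0 member regions were called with Ad_Cre, with Ad_Cont and averaged, and with edgeR bounded at the Poisson variance 0, 0 and 1. Library sizes taken from listed tags instead of TMM moved the median log2 fold change of all regions to 0.14 with Ad_Cre, 0.06 with Ad_Cont and 0.10 averaged, and made 20 averaged member calls, 19 of them higher, where 11.6% of all regions were called.

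Regions over a promoter window were counted apart from the rest. Of the 12 promoter regions 0 were called in the averaged comparison, where 3.59% of the 12188 promoter regions of all genes were called, so a count of 0 does not set them apart from that background. Elsewhere 10 of 94 member regions were called, where 6.07% of 89387 were. The averaged log2 fold changes of the 12 promoter regions ran from -0.31 at Pck1 to 0.26 at the upstream Pfkfb3 start.

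**Figure D1:**
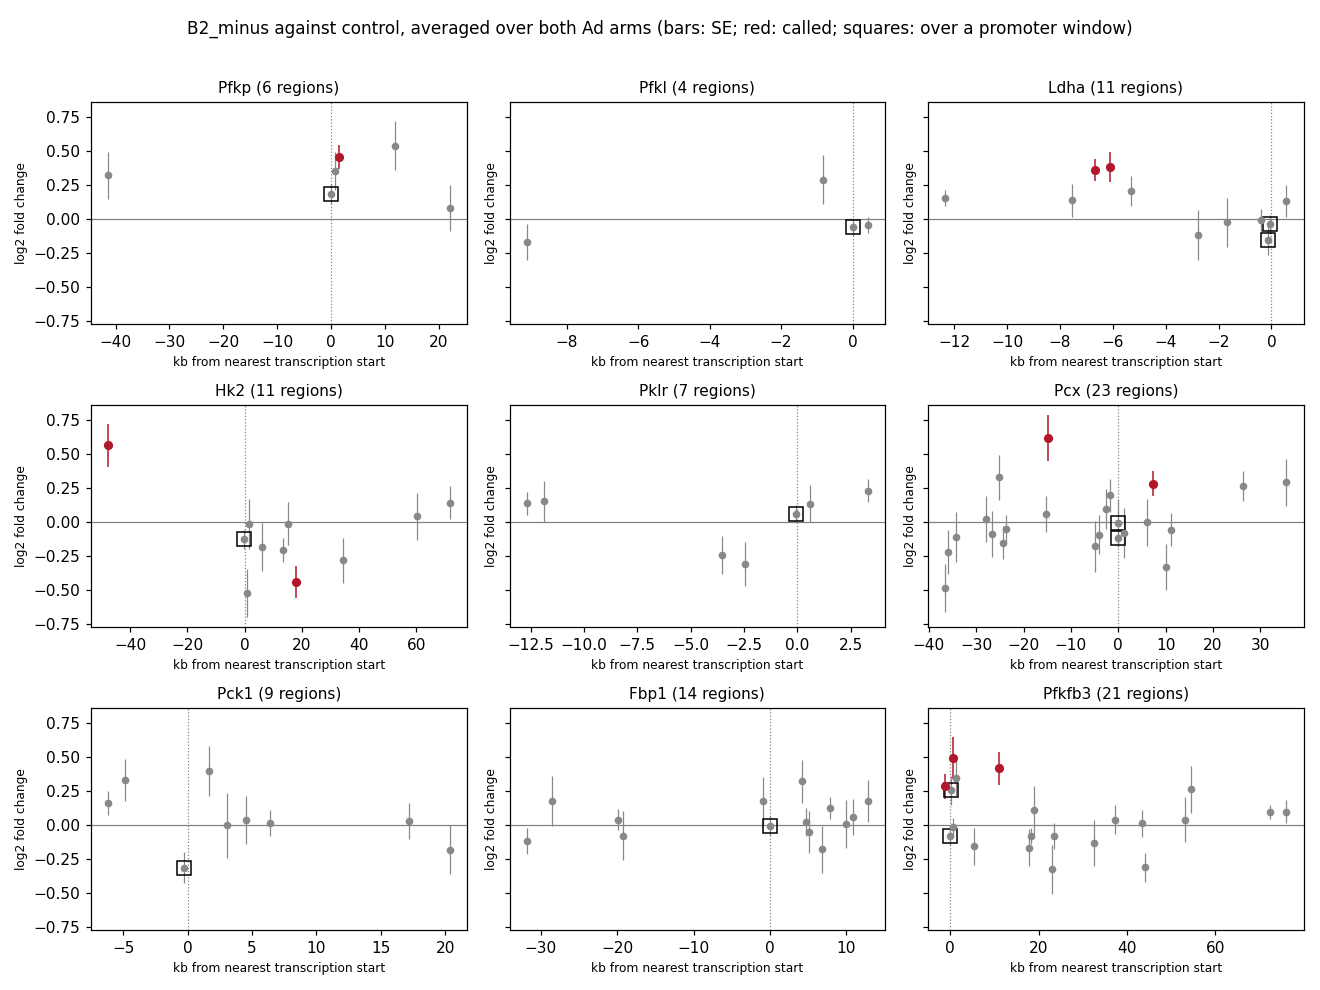
Averaged log2 fold change of B2_minus against control (vertical axis) for each of the 106 member regions by its distance in kb from the nearest transcription start (horizontal axis, 1 panel per gene), with bars for the SE. Red points are the 10 called regions and open squares the 12 promoter regions, none of which is red.

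Phosphofructokinase commits sugar to glycolysis, and mammals make it from several subunit genes, of which Pfkp is named for platelets and Pfkl for liver. At Pfkp all 6 tested regions had a positive averaged log2 fold change, from 0.08 to 0.54. The region centred 1.5 kb after the start (chr13:6647150-6647399, inside the gene) was called in every B2_minus comparison. It held 50.1, 59.4 and 55.3 scaled tags in B2_minus libraries with Ad_Cre, against 44.1, 38.8 and 38.6 in control libraries with Ad_Cre. With Ad_Cont it held 60.9, 44.8 and 62.1 in B2_minus libraries and 39.8, 40.8 and 42.1 in control libraries. All 6 B2_minus libraries lay above all 6 control libraries. The group means were 54.9 ± 4.67 in B2_minus and 40.5 ± 3.14 in control with Ad_Cre, and 55.9 ± 9.67 in B2_minus and 40.9 ± 1.16 in control with Ad_Cont (SD, n = 3 each), so the fold was 1.36 with Ad_Cre and 1.37 with Ad_Cont. The averaged log2 fold change was 0.45 (SE 0.0888), and the averaged call was kept in 10 of 11 other settings, being lost with DESeq2, and without each of the 12 libraries in turn. The calls within an arm were less stable. The Ad_Cre call was kept in 5 of 11 other settings and was lost without any 1 of the 6 Ad_Cre libraries, and the Ad_Cont call was kept in 5 of 11 settings and without 7 of the 12 libraries in turn.

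Closer to the Pfkp start and deeper in the gene, the B2_minus difference was seen with Ad_Cont. The region 0.843 kb after the start (chr13:6647688-6648169) held 36.7, 30.9 and 28.4 scaled tags in B2_minus libraries with Ad_Cont, against 18.8, 18.9 and 20.5 in control libraries with Ad_Cont. With Ad_Cre it held 20.9, 25.9 and 24.5 in B2_minus libraries and 23.2, 23.9 and 25.4 in control libraries. The groups were apart with Ad_Cont and overlapped with Ad_Cre, with log2 fold changes of -0.02 (SE 0.192) with Ad_Cre and 0.73 (SE 0.194) with Ad_Cont. When all of a library's peaks in this region were summed in place of taking the highest, the Ad_Cont value turned to -0.15. The region 11.8 kb after the start (chr13:6636637-6637275) held 16.1, 14.9 and 16.8 scaled tags in B2_minus and 8.84, 7.96 and 7.56 in control libraries with Ad_Cont, a log2 fold change of 0.97 (SE 0.271). With Ad_Cre it held 15.6, 11.5 and 15.4 in B2_minus and 9.92, 9.94 and 18.4 in control libraries, and the groups overlapped. The control values with Ad_Cont lie near the lowest listed counts, so their spread may be understated. Without 1 library at a time, the Ad_Cont call was kept in 7 of 12 fits at 0.843 kb and in 6 of 12 at 11.8 kb. Of the other settings that gave a value, 6 of 10 kept it at 0.843 kb and 5 of 9 at 11.8 kb.

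Summed over its 6 regions, Pfkp held 183 to 216 scaled tags in the 6 B2_minus libraries and 151 to 173 in the 6 control libraries, without overlap and with a ratio of means of 1.24. The sums of each of the other 8 genes overlapped between the diets, with ratios from 0.930 at Hk2 to 1.08 at Ldha. Sums were not computed for all genes, so how often a gene's sums separate is not known, and the members were chosen on this comparison. The Pfkp promoter itself held 64.4 ± 3.98 scaled tags in B2_minus and 59.2 ± 0.68 in control libraries with Ad_Cre, and 70.3 ± 3.82 in B2_minus and 59.2 ± 5.49 in control libraries with Ad_Cont (SD, n = 3 each). Neither promoter difference was called, although the groups were apart in each arm. At Pfkl the 4 regions gave averaged log2 fold changes of -0.17 to 0.29 with 0 calls. Its highest region, 0.432 kb after the start (chr10:78009224-78009527), held 92.3 ± 2.63 in B2_minus and 87.6 ± 4.00 in control libraries with Ad_Cre, and 82.1 ± 2.14 in B2_minus and 92.3 ± 3.47 in control libraries with Ad_Cont (SD, n = 3 each).

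Ldha encodes the lactate dehydrogenase subunit that favours the conversion of pyruvate to lactate. Its called regions were a neighbouring pair upstream of the gene. The region 6.67 kb before the start (chr7:46838968-46839310, 2964 bp outside the gene body) held 62.6, 71.8 and 66.2 scaled tags in B2_minus libraries with Ad_Cre, against 34.2, 44.7 and 44.7 in control libraries with Ad_Cre. In the Ad_Cont arm there were 58.2, 60.8 and 51.5 in B2_minus libraries and 55.3, 58.7 and 51.8 in control libraries. The groups were far apart with Ad_Cre and overlapped with Ad_Cont. The log2 fold change was 0.69 (SE 0.114) with Ad_Cre, a fold of 1.62, and 0.04 (SE 0.114) with Ad_Cont. The Ad_Cre call was kept in 7 of 11 other settings and without each of the 12 libraries in turn. The settings that lost it were DESeq2, bounded edgeR, sums of peaks and the inclusion of regions with a peak in at least 3 libraries.

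The adjacent Ldha region, 6.09 kb before the start (chr7:46839549-46839878), was called in the averaged comparison. It held 44.9, 38.3 and 40.8 scaled tags in B2_minus and 28.7, 31.8 and 31.5 in control libraries with Ad_Cre. With Ad_Cont it held 43.0, 33.0 and 35.8 in B2_minus and 32.0, 30.9 and 25.9 in control libraries. All 6 B2_minus libraries lay above all 6 control libraries, and the log2 fold change was 0.42 (SE 0.150) with Ad_Cre and 0.34 (SE 0.159) with Ad_Cont. Its averaged call was kept without 9 of the 12 libraries in turn and in 8 of 11 other settings, being lost with DESeq2, bounded edgeR and sums of peaks. The highest Ldha region, 12342 bp before the start (chr7:46833333-46833592), held 89.9 ± 7.40 in B2_minus and 81.6 ± 6.96 in control libraries with Ad_Cre, and 96.7 ± 2.48 in B2_minus and 85.9 ± 4.98 in control libraries with Ad_Cont (SD, n = 3 each), with no call. At the first Ldha promoter the means were 70.8 ± 14.0 in B2_minus and 75.6 ± 4.26 in control libraries with Ad_Cre, and 71.3 ± 6.22 in B2_minus and 70.8 ± 9.08 in control libraries with Ad_Cont. The highest region within 1 kb of an end of the gene body (chr7:46842483-46843564) averaged only 11.7 over the 12 libraries, with an averaged log2 fold change of -0.12 (SE 0.185).

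**Figure D2:**
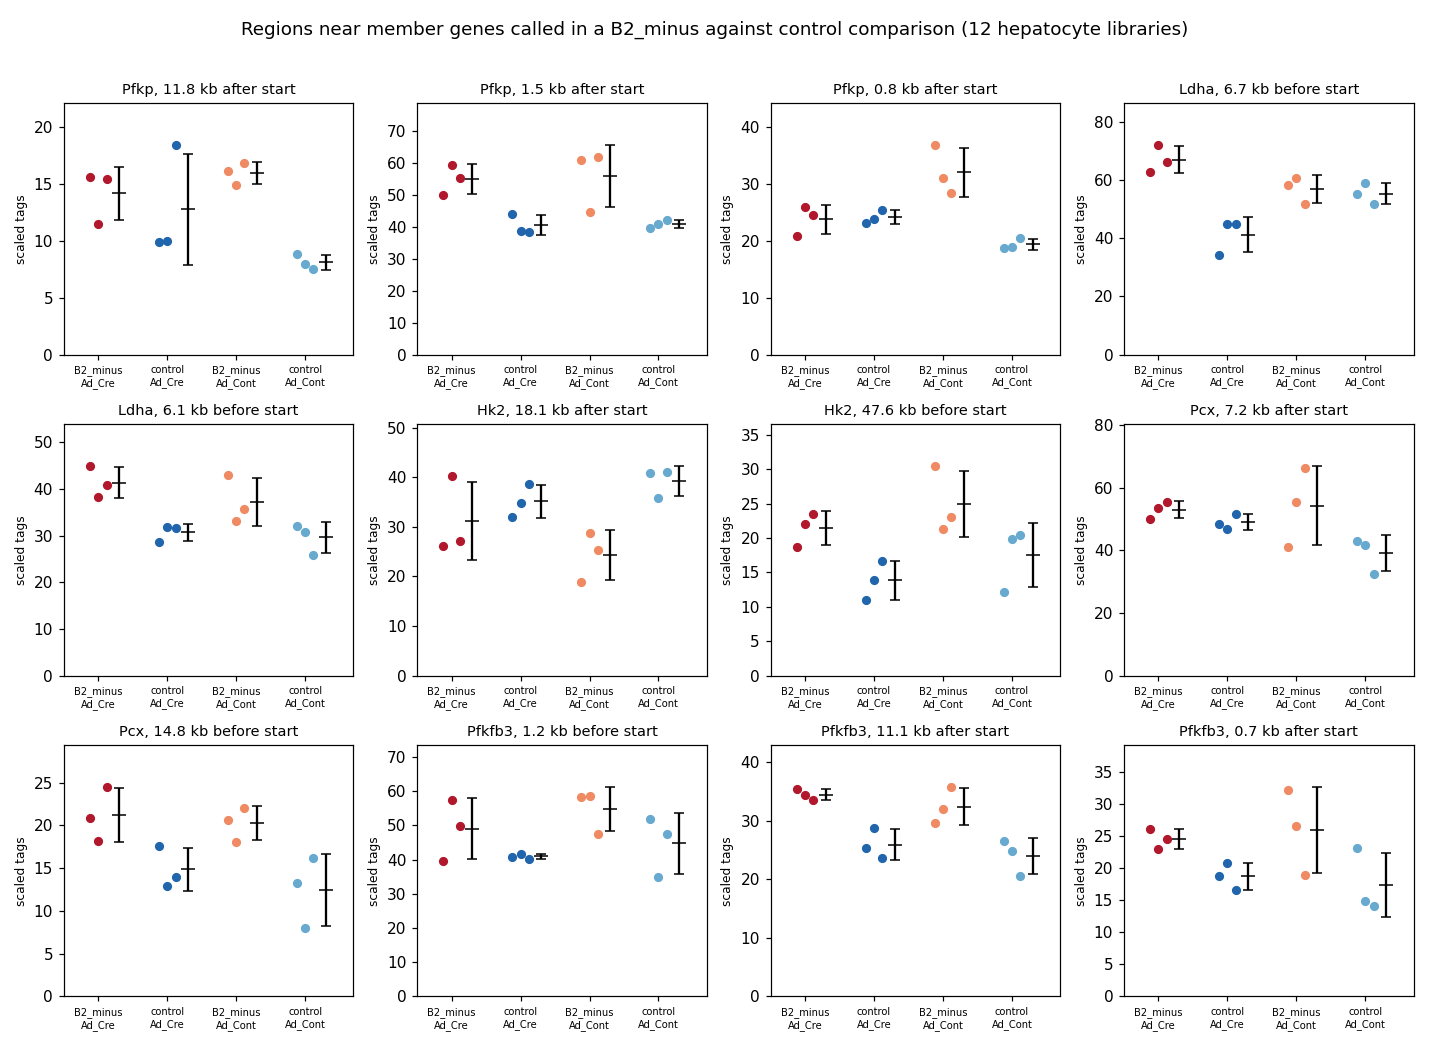
Scaled tags per library (vertical axes, from 0) at the 12 regions called in at least 1 B2_minus against control comparison, by group, with the mean and SD beside the points (n = 3). The panels were selected on this difference, so separation in them is partly built in, and its share over all called regions was not computed. All B2_minus points lie above all control points within each arm in 5 of the 12 panels. They do so in 2 panels with Ad_Cre only, among them the Ldha region 6.7 kb before the start, and in 2 with Ad_Cont only. The Hk2 region 18.1 kb after the start is lower in B2_minus with Ad_Cont.

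Hk2, Pklr and Pfkfb3 act at other control points. Hk2 encodes a hexokinase that traps glucose in the cell as its phosphate and is low in adult liver. Its 11 regions held 1 call in each direction in the averaged comparison. The region 18.1 kb after the start (chr6:82756210-82756570, inside the gene) held 18.8, 28.8 and 25.2 scaled tags in B2_minus libraries with Ad_Cont, against 40.9, 35.8 and 41.0 in control libraries with Ad_Cont. With Ad_Cre it held 26.1, 40.2 and 27.2 in B2_minus and 32.0, 34.8 and 38.6 in control libraries. The groups were apart with Ad_Cont and overlapped with Ad_Cre, and the averaged log2 fold change was -0.44 (SE 0.118). In the opposite direction, a region 47.6 kb before the start (chr6:82821793-82822311) held 18.8, 22.0 and 23.6 in B2_minus and 11.03, 13.9 and 16.6 in control libraries with Ad_Cre. In the Ad_Cont arm there were 30.5, 21.3 and 23.1 in B2_minus and 12.2, 19.9 and 20.5 in control libraries, for an averaged log2 fold change of 0.56 (SE 0.160). B2_minus libraries were higher in each arm without overlap. The averaged call was kept without 11 of the 12 libraries in turn at 18.1 kb and without 8 of 12 at 47.6 kb. Of the other settings that gave a value, 7 of 11 kept it at 18.1 kb and 5 of 9 at 47.6 kb.

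That Hk2 region lay 47339 bp from the gene body, just inside the 50 kb limit. The other regions nearest the limit were 1 near Pfkp at 40935 bp, with an averaged log2 fold change of 0.32, and 2 near Pfkfb3 at 45283 bp and 41505 bp, each with 0.10. Just outside the limit, a Pfkfb3 region at 54959 bp had 0.13. Within the Hk2 gene, a further region 13.5 kb after the start (chr6:82760749-82761245) held 35.8 to 46.3 in the 6 B2_minus and 46.3 to 55.7 in the 6 control libraries. Its groups met without overlapping, and it was not called. The Hk2 promoter held 66.0 ± 4.13 in B2_minus and 67.4 ± 4.66 in control libraries with Ad_Cre, and 60.1 ± 4.29 in B2_minus and 69.4 ± 4.95 in control libraries with Ad_Cont (SD, n = 3 each).

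Pklr encodes the pyruvate kinase of liver and red blood cells, which makes pyruvate in the final step of glycolysis. Its 7 regions gave no call, with averaged log2 fold changes of -0.31 to 0.23. Its highest region covered the downstream promoter (chr3:89136415-89136706) and held 85.5, 84.3 and 88.0 scaled tags in B2_minus and 83.8, 88.5 and 82.4 in control libraries with Ad_Cre. With Ad_Cont it held 89.6, 86.3 and 106 in B2_minus and 89.5, 84.6 and 87.5 in control libraries. The groups overlapped in both arms.

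Pfkfb3 encodes a bifunctional enzyme that makes the activator of phosphofructokinase. Of its 21 regions 3 were called higher in the averaged comparison and 0 lower. The region 11.1 kb after the upstream start (chr2:11542696-11542989) held 35.5, 34.5 and 33.5 scaled tags in B2_minus and 25.4, 28.8 and 23.7 in control libraries with Ad_Cre. In the Ad_Cont arm there were 29.6, 32.0 and 35.8 in B2_minus and 26.5, 24.9 and 20.5 in control libraries. All 6 B2_minus libraries lay above all 6 control libraries, at an averaged log2 fold change of 0.42 (SE 0.123). A region 0.707 kb after the same start (chr2:11553093-11553351) had 0.50 (SE 0.152) and one 1.18 kb before the downstream start (chr2:11503118-11503421) had 0.29 (SE 0.0914), and B2_minus and control libraries overlapped at both over the 12 libraries. Without 1 library at a time, the averaged call was kept in 9 of 12 fits at 11.1 kb, in 5 of 12 at 0.707 kb and in 4 of 12 at 1.18 kb. Of 11 other settings, 8 kept it at 11.1 kb, 7 at 0.707 kb and 5 at 1.18 kb, where limma was among those that lost it. The strongest Pfkfb3 region (chr2:11429617-11429925), 41505 bp beyond the gene, held 109 ± 4.88 in B2_minus and 105 ± 5.72 in control libraries with Ad_Cre, and 112 ± 7.44 in B2_minus and 103 ± 11.9 in control libraries with Ad_Cont. At the upstream promoter the means were 44.1 ± 0.793 in B2_minus and 34.3 ± 2.21 in control libraries with Ad_Cre, where the groups were apart, and 35.1 ± 4.40 in B2_minus and 31.3 ± 2.26 in control libraries with Ad_Cont, where they overlapped.

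Of the 3 gluconeogenic members, Pcx alone had called regions. Pcx encodes pyruvate carboxylase, the mitochondrial enzyme that turns pyruvate into oxaloacetate. Of its 23 regions 2 were called, both higher in B2_minus in the averaged comparison. The region 14.8 kb before the downstream start and inside the gene (chr19:4579362-4579642) held 20.9, 18.2 and 24.5 scaled tags in B2_minus and 17.6, 12.9 and 14.0 in control libraries with Ad_Cre. With Ad_Cont it held 20.6, 18.1 and 22.1 in B2_minus and 13.3, 7.96 and 16.2 in control libraries. All 6 B2_minus libraries lay above all 6 control libraries, and the averaged log2 fold change was 0.62 (SE 0.169). The region 7.24 kb after the upstream start (chr19:4517580-4517851) had 0.28 (SE 0.0900), and its diet groups overlapped in both arms. The averaged call 14.8 kb before the downstream start was kept without 10 of the 12 libraries in turn, and the one 7.24 kb after the upstream start without 5 of 12. Of the other settings that gave a value, 7 of 10 kept the former and 6 of 11 the latter. The first Pcx promoter, the strongest member region, held 105 ± 6.19 in B2_minus and 108 ± 8.93 in control libraries with Ad_Cre, and 103 ± 9.97 in B2_minus and 117 ± 3.58 in control libraries with Ad_Cont (SD, n = 3 each).

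Pck1 encodes the cytosolic carboxykinase that makes phosphoenolpyruvate from oxaloacetate, and Fbp1 the phosphatase that opposes phosphofructokinase. The 9 Pck1 regions gave averaged log2 fold changes of -0.31 to 0.40 and the 14 Fbp1 regions -0.18 to 0.32, with no call. The lowest Pck1 value was at the promoter, which held 22.9, 33.5 and 32.6 scaled tags in B2_minus and 39.7, 42.8 and 36.8 in control libraries with Ad_Cre. With Ad_Cont the promoter held 32.3, 28.8 and 26.3 in B2_minus and 37.6, 33.8 and 31.3 in control libraries. The diets were apart with Ad_Cre and overlapped with Ad_Cont. The strongest Pck1 region, 6015 bp upstream of the gene (chr2:173146773-173147058), held 51.2 ± 2.33 in B2_minus and 42.5 ± 6.54 in control libraries with Ad_Cre, and 50.7 ± 7.98 in B2_minus and 47.6 ± 5.78 in control libraries with Ad_Cont. The region 67 bp beyond the Pck1 end (chr2:173159341-173159625) averaged 42.4, with an averaged log2 fold change of 0.02 (SE 0.0949). At the Fbp1 promoter the means were 61.6 ± 5.97 in B2_minus and 60.0 ± 0.596 in control libraries with Ad_Cre, and 61.8 ± 5.65 in B2_minus and 64.4 ± 8.53 in control libraries with Ad_Cont.

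**Figure D3:**
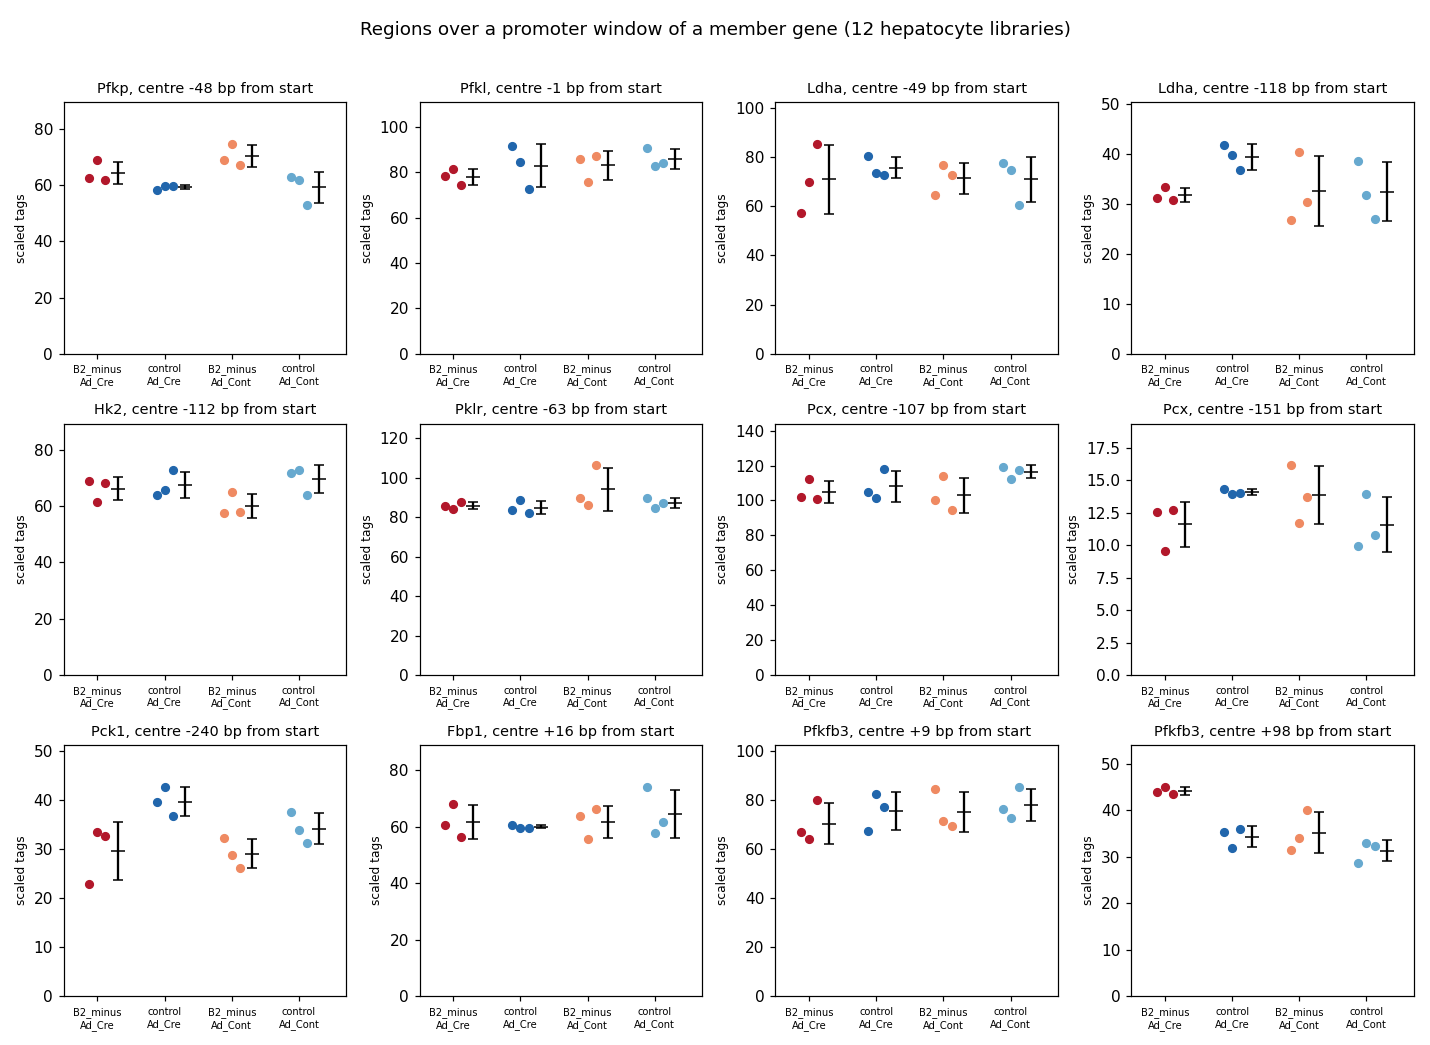
Scaled tags per library (vertical axes, from 0) at the 12 member regions over a promoter window, by group, with the mean and SD beside the points (n = 3). None was called, the first Pcx promoter is the strongest at 108 on average, and the Pck1 promoter is lower in B2_minus than in control with Ad_Cre.

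Over the 106 regions, B2_minus and control libraries did not overlap at 27 regions with Ad_Cre, 17 higher and 10 lower, where 17.5% of all regions did not overlap (8.54% higher, 8.95% lower). With Ad_Cont they did not overlap at 20 regions, 15 higher and 5 lower, where 17.3% of all regions did not (8.64% higher, 8.63% lower). Across all 12 libraries, 4 regions were higher in every B2_minus library (1 each at Pfkp, Ldha, Pcx and Pfkfb3) and 1 Hk2 region was lower, where 2.23% of all regions did not overlap (0.898% higher, 1.33% lower). No member region had diet groups apart in opposite directions in the 2 arms, where 0.393% of all regions did.

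The arm given Cre was next compared with its control arm within each diet. The rule that chose the members named this comparison for Pfkp and Ldha, and it also compared the 4 groups at every member. The counts for the 89 regions of the other 7 genes are therefore a description and not an independent test. In B2_minus cells 0 of 89 passed (edgeR, 0.00197% of all regions called), with 10 at an unadjusted p under 0.05 (7.29% of all regions). In control cells 0 of 89 passed (edgeR, 0.00591% of all regions called), with 7 at an unadjusted p under 0.05 (7.82% of all regions). DESeq2, limma and bounded edgeR also gave 0 in each diet. Over all 106 member regions, those of Pfkp and Ldha included, the Ad arms did not overlap at 19 in B2_minus cells. Of these, 12 were higher and 7 lower with Ad_Cre, where 5.86% of all regions were apart and higher and 6.15% apart and lower. In control cells they did not overlap at 14 of the 106, 9 higher and 5 lower, where 6.22% of all regions were apart and higher and 6.21% apart and lower.

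Pfkp and Ldha were compared between the Ad arms region by region, as a description without p-values. The Ldha region 6.67 kb before the start held 66.9 ± 4.66 scaled tags with Ad_Cre and 56.9 ± 4.76 with Ad_Cont in B2_minus cells, a log2 fold change of 0.23 (SE 0.106). In control cells it held 41.2 ± 6.08 with Ad_Cre and 55.3 ± 3.45 with Ad_Cont, a log2 fold change of -0.41 (SE 0.122). The Ad arms did not overlap in either diet, in opposite directions. The Pfkp region 0.843 kb after the start had the converse pattern, with 23.7 ± 2.58 with Ad_Cre and 32.0 ± 4.28 with Ad_Cont in B2_minus cells, against 24.1 ± 1.15 with Ad_Cre and 19.4 ± 0.963 with Ad_Cont in control cells. Its log2 fold changes were -0.44 (SE 0.180) in B2_minus and 0.32 (SE 0.207) in control cells. These were the 2 member regions of 106 whose Ad arms separated in opposite directions in the 2 diets, where 0.447% of all regions did, and both diets' values come from the libraries that the rule used. The Pfkp region 11.8 kb after the start had log2 fold changes of -0.17 (SE 0.231) in B2_minus and 0.68 (SE 0.284) in control cells. The Pfkp region 1.5 kb after the start had log2 fold changes of -0.03 (SE 0.115) in B2_minus and -0.02 (SE 0.137) in control cells.

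The difference of the diet effect between arms, given as a description for these genes, was 0.65 (SE 0.162) at that Ldha region and -0.76 (SE 0.275) at that Pfkp region on the log2 scale. Across the 89 regions of the other 7 genes 0 passed the edgeR interaction test (0.0% of all regions called), and DESeq2 and limma gave 0. With edgeR, 5 had an unadjusted p under 0.05 (5.14% of all regions). The interaction is built from the diet values by which the members were chosen, so these counts are a description too. Gene sums, also a description, gave no separation that 3 against 3 could call. The smallest exact two-sided permutation p possible is 0.1, and it was reached in B2_minus cells by Hk2, with 286 ± 8.25 scaled tags with Ad_Cre and 261 ± 10.1 with Ad_Cont, and by Pfkfb3, with 837 ± 15.4 with Ad_Cre and 861 ± 3.61 with Ad_Cont (n = 3 each). The Pfkp sum in control cells, given as a description, was 167 ± 4.97 with Ad_Cre and 154 ± 4.27 with Ad_Cont.

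**Figure D4:**
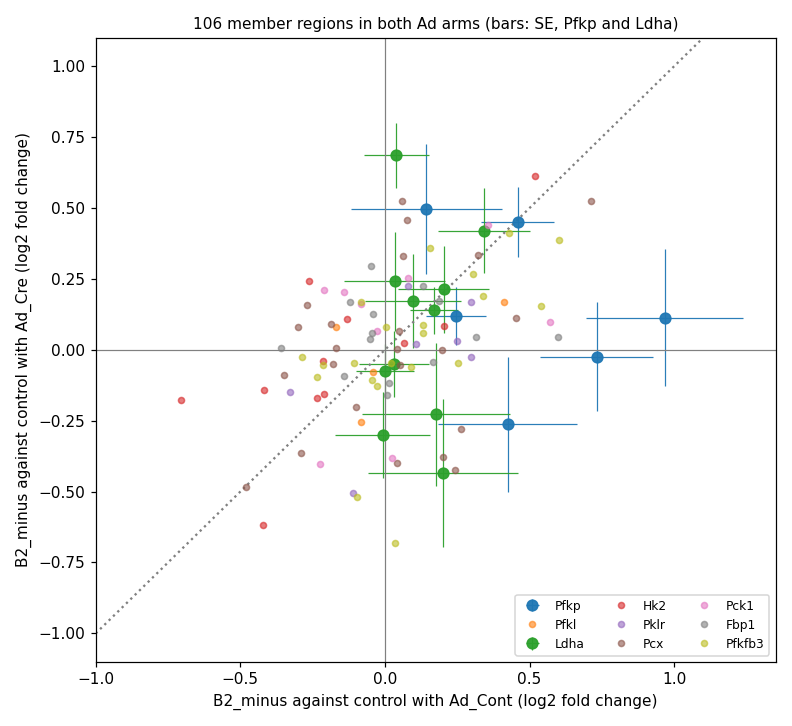
Log2 fold change of B2_minus against control with Ad_Cre (vertical axis) against that with Ad_Cont (horizontal axis) for the 106 member regions, coloured by gene, with SE bars for Pfkp and Ldha. The Ldha region 6.67 kb before the start lies at 0.69 with Ad_Cre and 0.04 with Ad_Cont, and the Pfkp region 0.843 kb after the start at -0.02 with Ad_Cre and 0.73 with Ad_Cont.

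Around the members, 44 other pathway genes had 336 regions with a peak in all 12 libraries. In the averaged comparison 8 were higher and 6 lower in B2_minus (4.17%, where 5.78% of all regions were called), with a median log2 fold change of 0.02. Of 159 regions at 20 genes of glycolysis and glucose entry, 5 were higher and 2 lower. Of 53 regions at 8 gluconeogenic genes, 1 was higher and 2 lower, and of 124 regions at 16 regulators, 2 were higher and 2 lower. DESeq2 and bounded edgeR each called 0 of the 336. With library sizes from listed tags 36 were higher and 3 lower (11.6%, the share of all regions called under that scaling being 11.6% as well).

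The largest averaged change was inside Ppargc1a, which encodes a coactivator of the gluconeogenic programme. There the signal was lower in B2_minus, at 10.3 ± 2.07 scaled tags in B2_minus against 16.7 ± 4.10 in control libraries with Ad_Cre. With Ad_Cont it was 11.8 ± 2.99 in B2_minus against 20.6 ± 4.77 in control libraries (averaged log2 fold change -0.76, SE 0.178). The regions named in this paragraph were picked because they were called in the averaged comparison, so no p-values are given. Those at Ppargc1a, G6pc and Pfkfb2 were called in neither arm alone. Regions were also lower at G6pc (-0.62), the phosphatase that releases glucose, near Slc2a1 (-0.46), a glucose transporter, and at Got1 (-0.66), an aspartate aminotransferase. At the G6pc region the groups were apart with Ad_Cre (log2 fold change -0.82, SE 0.255) and overlapped with Ad_Cont (-0.41, SE 0.264). Regions were higher at Pfkfb2 (0.59), a relative of Pfkfb3, and near Pgam1 (0.57), a phosphoglycerate mutase. They were also higher near Hif1a (0.39), a hypoxia-responsive transcription factor, and at Pkm (0.33), the pyruvate kinase of most tissues outside the liver. Got1 also had a called region in the other direction, at 0.37. The B2_minus means at the Got1 and G6pc regions, 7.58 to 10.5, lie near the lowest listed counts. So does the B2_minus mean of 10.3 with Ad_Cre at the Ppargc1a region.

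The regions of other genes whose 12 values ran most like the Pfkp and the Ldha region with the largest averaged change were found by Pearson's r of log2 scaled tags over the 12 libraries, as a description. For the Pfkp region 11.8 kb after the start they lay nearest Upf3b (0.951), Col27a1 (0.935) and Gemin2 (0.926). For the Ldha region 6.09 kb before the start they lay nearest Jade3 (0.958), Mical3 (0.942) and Upb1 (0.925). The points share libraries and their scaling, and these are the top of 101575 regions.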

How the data were processed

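The 12 mouse hepatocyte libraries were analysed from the deposited peak lists, 1 per library. The submitters' processing notes name Bowtie2, HOMER and mm10, without roles or versions. Their settings are not given in the sources. Nearly all peaks were 200 bp wide. The deposited column of whole-number tag counts per peak was taken as unscaled counts from its values, since the files have no header. Listed tags, not sequencing depth, totalled 3897632 to 5557678 per library.

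Peaks overlapping by 1 bp were merged, a library's value was its highest count in the region, and regions with a peak in all 12 libraries were fitted in 4 groups with edgeR 4.0.16 in R 4.3.3 (TMM, quasi-likelihood F test without the Poisson lower bound, Benjamini-Hochberg over all regions, threshold 0.05). That form of the fit follows an earlier analysis of these data. Members, gene lists and tests were chosen with earlier results of these data known. Regions named are those called, the strongest of each gene and the strongest within 1 kb of a gene end. From other pathway genes, at most 10 with a called region were taken by size of change, some of which are not reported here, and the Hk2 region 13.5 kb after the start was chosen after its values were seen. Alternatives used DESeq2 1.42.0 and limma 3.58.1 on log2(scaled tags + 1), other scalings, filters and merging, and each library left out. Poisson counts were simulated for 101575 regions without a lowest listed count, and changes were put only into regions with higher mean counts. For the averaged comparison, 50 of 50 regions raised 2-fold and 36 of 50 raised 1.5-fold were recovered. Of those lowered, 47 of 50 were recovered at 0.5-fold and 29 of 50 at 0.667-fold. These shares do not carry over to weak regions or to the spread of the real libraries. They count recovered changes only and do not show how often an unchanged region was called.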

Additional observations from a re-analysis of the deposited data

Results flagged for a closer look

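One region in data outside the tested set was listed in every library of one diet and in none of the other. It lies 5155 bp from Pck1 (chr2:173164429-173164670) and was listed with 6, 8 and 12 tags in B2_minus libraries with Ad_Cre and with 9, 9 and 8 tags in B2_minus libraries with Ad_Cont. It was listed in 0 of the 6 control libraries. The median over the 6 B2_minus libraries was 8.5 tags, close to the lowest listed counts of 6 to 8, and a count below its library's lowest is not in a list. Of 642948 regions, 45 had this pattern, and 1 of them was nearest a member. The difference was not tested.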

How the results depend on the processing

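The calls depended on the test and on how a region was valued. For B2_minus against control, 2 member regions with Ad_Cre, 4 with Ad_Cont and 10 averaged became 0, 0 and 0 with DESeq2 and 0, 0 and 1 with bounded edgeR. They became 0, 0 and 3 with sums of peaks, and 8, 5 and 20 with library sizes from listed tags. Requiring a peak in at least 3 libraries gave 0, 0 and 10, limma gave 1, 3 and 10, peaks of at least 10 tags gave 2, 2 and 8, and merging at 100 bp gave 3, 2 and 10. RLE factors gave 2, 4 and 10 and a 10 kb limit 2, 4 and 9. Over all regions the averaged calls were 5867, against 996 with bounded edgeR, 45 with DESeq2, 1469 with sums of peaks and 11751 with listed tags. Leaving out 1 library at a time gave 1 to 3 calls with Ad_Cre, 0 to 4 with Ad_Cont and 5 to 10 averaged. Without control replicate 1 or 3 with Ad_Cont, 0 Ad_Cont calls were left. Without B2_minus replicate 1 with Ad_Cont 5 averaged calls were left, and without B2_minus replicate 3 with Ad_Cre 6. The comparisons of Ad_Cre with Ad_Cont and the interaction kept 0 member calls under each alternative run. The Ad_Cont value at the Pfkp region 0.843 kb after the start reversed to -0.15 with sums of peaks. Of the other values of named regions under alternatives, 530 were counted as the same. For a called value this meant the same direction and an adjusted p under 0.05. For an uncalled value it meant a shift of at most its SE in the main fit, whatever its direction or call. Another 122 called values fell short of the threshold, and 24 uncalled values moved by more than that SE. Some named regions gave no value under 10-tag peaks, 100 bp merging or the 10 kb limit. The cause of these changes was not tested.

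Over all tested regions, deviations from the group mean gave r of -0.0161 to 0.0123 between same-numbered libraries and -0.0133 to 0.0142 between differently numbered ones. Counting noise in weak regions can hide a shared deviation, so this check cannot tell whether the numbers pair samples. With the replicate number as a block 3, 4 and 11 member regions were called with Ad_Cre, with Ad_Cont and averaged. Counts near the lowest listed tags limit the values of weak regions.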

Other observations

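Among member regions outside the tested set, 1 near Hk2 (chr6:82815890-82816161) and 1 near Fbp1 (chr13:62917653-62918016) were listed in 1 of 6 B2_minus libraries and in 5 of 6 control libraries, with at most 12 tags at Hk2 and at most 8 at Fbp1. A peak in at most 1 B2_minus library and in at least 5 control libraries was seen at 2 of 543 member regions (0.368%), against 0.245% of all 642948 regions. Of the 543 member regions, 215 (39.6%) were listed in a single library, against 49.4% of all 642948 regions. No member region was listed in all 6 libraries of one Ad arm and in none of the other.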
